A study of Mus musculus with 2 samples.

Results

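Macrophages picked by a gene set that includes Trem1 and Clec5a were described in CD45-positive cells of MC38 colon carcinomas. They were 496 cells out of 8619 gated as macrophages and of 11573 cells in all. Some of these cells had neither Trem1 nor Clec5a detected. The tumours grew under C57BL/6 female mice that received LC427, a compound known here by its code name alone, or vehicle, and were taken on day 14. The title of the series names LRBA, a protein that spares CTLA4 from lysosomal breakdown, as the target, so the comparison asks how treatment with LC427 relates to the state of immune cells in the tumour. Each group is 1 droplet library of 10x 5′ chemistry, LC427 and Vehicle, made from cells freed by enzymes, cleared of dead cells and selected on CD45 beads. The number and age of the mice and whether tumours were pooled are not given in the sources used here, and neither are dose and schedule. MC38 is a transplanted cell line, which limits it as a model of a tumour that arises in place. With 1 library for each group there is no replicate, no test was possible, and every interval below covers counting error within these libraries only.

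TREM1 and CLEC5A are receptors on myeloid cells that have no signalling tail of their own and pass their signal through the adaptor TYROBP (DAP12) to the kinase SYK and the CARD9, BCL10 and MALT1 complex. TREM1 amplifies inflammation set off by Toll-like receptors, and CLEC5A is a C-type lectin known for driving cytokine release in infection. Macrophages of tumours arise largely from blood monocytes that carry the chemokine receptor CCR2, and are known for arginase, matrix proteases and factors that act on vessels and T cells.

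The cells were chosen by what they expressed. A barcode counted as a cell at 1000 or more UMIs (tags that mark each captured RNA molecule), 400 or more genes and a mitochondrial share of no more than 10%. It was gated as a macrophage with a UMI of Csf1r, C1qa or Lyz2 and none of Cd3e or Ncr1. Detected genes were then counted in 5 sets of 5 genes, and a cell became a member when set B (Dpep2, Trem1, F10, Cdh1 and Clec5a) had at least 2 detected genes and more than every other set. The other sets were A (Cbr2, Gas6, Folr2, Fcrls, Vcam1), C (Ly6i, Fpr2, Plac8, Nos2, Ly6c2), D (Mmp13, Hilpda, Pmp22, Fabp5, Mt2) and E (Pf4, Gatm, Ckb, Cx3cr1, Itgb5). The gene sets came from a clustering of these same cells, so levels in members against other macrophages are descriptions and carry no test.

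The LC427 library held 28732435 UMIs and the vehicle library 33711726, over 6328 and 5245 cells. The 295 LC427 members had a median of 3048 UMIs and 1273 genes, against 5412 UMIs and 1734 genes in the 201 vehicle members. Depth thus differed between the groups, and shares of cells are therefore also given after each cell was thinned to 1000 UMIs. The libraries shared 49 cell barcodes, of which 1 was a member in LC427 and 3 were members in vehicle. The mitochondrial limit removed 12 barcodes in LC427 and 137 in vehicle, and the members' median mitochondrial share was 1.33% in LC427 and 1.97% in vehicle. No member stood for more than 1.70% of the members' summed UMIs in LC427 or 1.77% in vehicle, but 1 LC427 member of 17987 UMIs stood apart, as it held nearly all collagen UMIs of its group and is named wherever it decides a value.

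The rule's 5 genes gave these levels, in UMIs of the gene per 1000000 UMIs summed over the members of a library (CPM). Trem1 (chr17:48232768-48246924, plus strand) stood at 192 CPM in LC427 and 165 CPM in vehicle members, with a UMI in 156 and 131 of the cells. Clec5a (chr6:40574894-40585821, minus strand) stood at 236 CPM in LC427 and 163 CPM in vehicle, in 184 and 127 cells. Dpep2, a membrane dipeptidase that converts cysteinyl leukotrienes, stood at 185 CPM in LC427 and 101 CPM in vehicle, in 164 and 96 cells (chr8:105984944-105991759, minus strand). Each of these receptors and enzymes was seen in a majority of LC427 members, while Dpep2 reached only 47.8% of the vehicle members. F10, coagulation factor X (chr8:13037308-13056676, plus strand), was the most widely detected, at 244 CPM in LC427 and 226 CPM in vehicle and in 191 and 152 cells. Cdh1, the adhesion protein E-cadherin (chr8:106603351-106670246, plus strand), stood at 133 CPM in LC427 and 145 CPM in vehicle, in 109 and 117 cells. All positions are those of GENCODE vM21 on GRCm38, the gene's whole span, and a second gene identifier also named Dpep2 that overlaps the first had no UMI.

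After thinning to 1000 UMIs, 21.7% of LC427 members and 18.9% of vehicle members kept a Trem1 UMI. In T cells of the same libraries, which should lack it, 0.475% in LC427 and 0.528% in vehicle kept one. Trem1 is a gene of the rule, so this difference follows from the choice of cells. Clec5a was kept in 27.5% of LC427 and 15.9% of vehicle members, and Dpep2 in 25.1% and 9.95%. F10 was kept in 25.8% of LC427 and 26.9% of vehicle members, and Cdh1 in 15.3% and 15.9%. In these cells, gated at full depth and thinned only afterwards, the libraries differed most in Clec5a and Dpep2 and least in F10 and Cdh1. Since the rule needs any 2 of the 5 genes, these shares are tied to each other. With thinning before the gate the order changed. The log2 ratio of LC427 over vehicle was then -0.89 for Cdh1, 0.85 for Dpep2, -0.40 for F10, 0.36 for Clec5a and -0.29 for Trem1. F10 was also kept in 12.1% of LC427 and 12.7% of vehicle cells of set C, the highest values of any set B gene in the other sets. Of the markers named with these cells but not used to pick them, Mmp12, the macrophage elastase (chr9:7344381-7369499, plus strand), was kept in 32.5% of LC427 and 34.8% of vehicle members, and in 36.5% and 31.1% of set D cells. Arg1, arginase (chr10:24915221-24927484, minus strand), was kept in 60.3% of LC427 and 74.6% of vehicle members and was widespread in every other set.

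**Figure D1:**
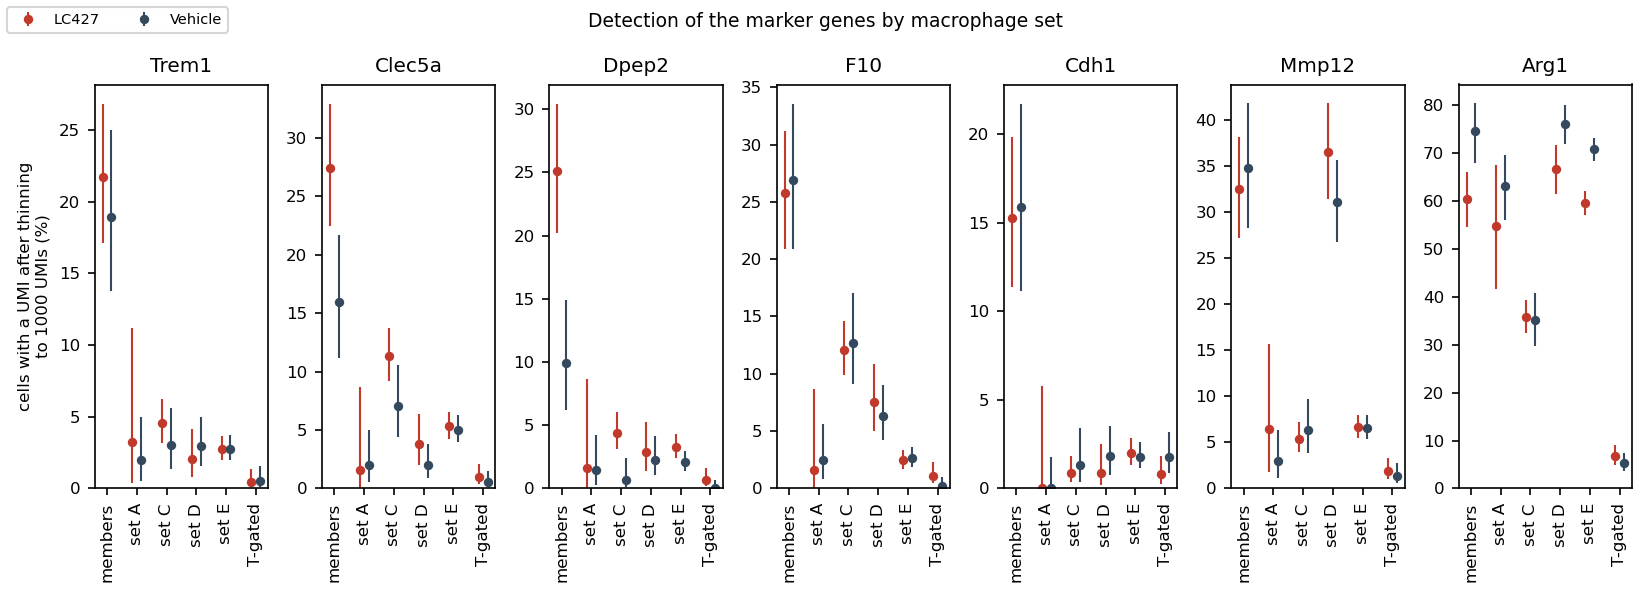
Percent of cells with a UMI of 7 marker genes after thinning each cell to 1000 UMIs, for members, the other macrophage sets and T-gated cells, in LC427 (red) and Vehicle (dark blue), each panel with its own axis from 0. Bars are exact 95% binomial intervals. Trem1, Clec5a, Dpep2, F10 and Cdh1 stand highest in members, by the rule; Mmp12 is as frequent in set D (36.5% and 31.1%) as in members (32.5% and 34.8%), and Arg1 is frequent in all macrophage sets.

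The label was checked against marker genes. All 12 macrophage markers were detected, and their summed level was 8895 CPM in LC427 and 11697 CPM in vehicle members, against 9071 and 12108 CPM in the macrophages of sets A, C, D and E. Lyz2, lysozyme, stood at 4802 CPM in LC427 and 6961 CPM in vehicle members and Csf1r, the receptor of the macrophage growth factor, at 310.0 and 297 CPM, both genes of the gate. Adgre1, which encodes F4/80, was the exception, at 28.7 CPM in LC427 and 30.6 CPM in vehicle members, below its level in empty droplets of 41.3 and 63.1 CPM, so this classical mouse macrophage marker did not exceed free RNA. Set A held 187 and 331 CPM of Adgre1 and set E 109 and 151 CPM. Set C was nearer the members, at 35.2 CPM in LC427 and 67.1 CPM in vehicle, and so was set D, at 46.6 and 80.5 CPM. In LC427 set C also stood below empty droplets. After thinning, 3.66% of LC427 and 5.02% of vehicle cells of set C kept an Adgre1 UMI, against 3.05% and 3.98% of members. Low Adgre1 was thus not confined to members.

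Markers of other cell types differed in level, and most of them also stood in empty droplets. Erythroid or platelet markers summed to 389 CPM in LC427 and 586 CPM in vehicle members, of which 370 and 579 CPM were Pf4, a gene of set E, and 4 of 7 were at 0 in each library. They summed to 1736 and 1916 CPM in empty droplets. Plasmacytoid dendritic cell markers summed to 273 and 283 CPM, most of it the interferon-induced Bst2, against 436 and 490 CPM in the other macrophages, and the defining Siglech stood at 1.74 and 3.83 CPM. Monocyte markers summed to 816 CPM in LC427 and 959 CPM in vehicle members, against 1256 and 823 CPM in the other macrophages. Neutrophil markers summed to 77.3 CPM in LC427 and 115 CPM in vehicle, with 3 of 11 at 0 in each library, Ly6g and Camp among them. T cell markers summed to 53.0 and 26.0 CPM, against 3119 and 4008 CPM in T-gated cells, and mast cell or basophil markers to 0 in both. Conventional dendritic cell markers summed to 79.9 CPM in LC427 and 42.9 CPM in vehicle, against 59.8 and 50.2 CPM in the other macrophages. The defining dendritic cell genes Flt3 and Zbtb46 stood at 3.47 and 0.868 CPM in LC427, and at 0 and 0.766 CPM in vehicle. Markers of mature regulatory dendritic cells summed to 59.0 CPM in LC427 and 243 CPM in vehicle, most of it Ccl22 in 9 vehicle cells, against 83.0 and 94.6 CPM in the other macrophages. Fibroblast markers summed to 198 CPM in LC427 and 7.66 CPM in vehicle, and the single barcode of 17987 UMIs held 63 of the 65 Col1a1 UMIs and 76 of the 77 Col3a1 UMIs of LC427. Its part in other results is given beside them.

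In the authors' deposited table of cluster means, Trem1 and Cdh1 were both highest in cluster 11 of 11 in LC427 and in cluster 13 of 13 in vehicle. In the authors' deposited table the mean of Trem1 there was 0.187 counts per cell in LC427 and 0.370 in vehicle. Adgre1, which was low in members, was highest in these same clusters in the authors' deposited table, with a mean of 0.386 in LC427 and 1.01 in vehicle, so the members are not matched to these clusters here. F10 peaked in another cluster of each library in the authors' deposited table, and no table used here assigns cells to clusters.

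Few members carried the whole set. In LC427, 143 members had 2 of the 5 genes, 101 had 3, 40 had 4 and 11 had all 5. In vehicle the numbers were 55, 84, 49 and 13, in cells that were deeper at every step. Median depth went along with the count, at 2225 UMIs in LC427 and 3617 in vehicle with 2 genes, and 8352 and 11189 with all 5. The level of Mmp12 was lowest in members with 2 set B genes in both libraries, at 375, 563, 849 and 829 CPM over 2 to 5 genes in LC427. In vehicle it stood at 379, 715, 1331 and 3780 CPM over the same steps. Spp1, osteopontin, stood at 1120, 2692, 2294 and 2310 CPM over these steps in LC427 and at 1159, 2193, 2697 and 3430 CPM in vehicle. Ccr2 did not follow, at 444, 437, 405 and 438 CPM over the steps in LC427 and 416, 403, 386 and 323 CPM in vehicle. The most frequent pair in LC427 was F10 with Clec5a, in 27 cells, and the most frequent combination in vehicle was Dpep2, Trem1, F10 and Clec5a, in 20 cells.

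The edge of the set was gradual. Among LC427 members 197 led the next set by 1 gene and 98 by more, and among vehicle members 133 and 68 did. Just outside stood 250 LC427 and 215 vehicle cells with at least 2 set B genes that tied with another set, and 257 and 358 cells in which another set was higher. Mmp12 stood at 814 CPM in LC427 and 1707 CPM in vehicle members with the wide lead, at 459 and 960 CPM in those leading by 1 gene, and at 720 and 627 CPM in the tied cells. Cells with no set B gene, 2515 in LC427 and 2064 in vehicle, had 128 and 138 CPM. Set E was the most frequent sole runner-up, in 84 LC427 and 63 vehicle members. The 30 LC427 members next to set D held 658 CPM of Mmp12, and the 22 such vehicle members 3210 CPM.

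Because the rule fixes the levels of its own genes, each cell's UMIs were also split at random into equal portions, the cells gated on 1 portion and the levels read in the other. This gate chose 184 LC427 and 135 vehicle cells, of which 125 and 92 were also members under the full gate. In the unused portion Trem1 was 2.35-fold higher than in the other macrophages in LC427 (95% counting interval 1.66 to 3.28) and 3.24-fold higher in vehicle (2.43 to 4.26). Clec5a was 1.68-fold higher in LC427 and 2.12-fold higher in vehicle, and Cdh1 5.80-fold and 4.05-fold. All 5 genes stood above the other macrophages in the portion that the gate did not use, by smaller factors than in the portion used for it. The gene sets themselves came from a clustering of these same cells. The unused portion is therefore not independent of the choice of genes, and these folds remain descriptions. Mmp12 was 2.49-fold higher in LC427 and 3.82-fold in vehicle, and Itgax, which encodes CD11c, 2.38-fold and 2.66-fold. Adgre1 stood at 0.184 and 0.237 of the other macrophages. Itgax was not confined to members. After thinning, 14.9% of LC427 and 7.46% of vehicle members under the full gate kept an Itgax UMI. In set C the shares were 10.7% in LC427 and 8.70% in vehicle, and in sets A, D and E they were lower than in members.

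Beyond the rule, 236 of 10779 genes with enough UMIs (2.19%) were at least 1.5-fold higher in members than in the macrophages of sets A, C, D and E in both libraries, and 1075 (9.97%) at least 1.5-fold lower. The median gene was lower in members, at log2 -0.14 in LC427 and -0.18 in vehicle, and with ratios centred on that median the counts were 414 higher and 772 lower. With every cell thinned to 1000 UMIs before the gate the balance turned, to 651 higher and 318 lower, in far fewer member UMIs. The genes furthest up and furthest down are single genes and stand for no group: of 16 tested fusion genes 2 were higher and 3 lower, of 19 matrix proteases and inhibitors 3 and 5, and of 19 lipid-associated genes 3 and 6.

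Dcstamp, a membrane protein needed for macrophages to fuse into giant cells, was at 84.2 CPM in LC427 and 101 CPM in vehicle members, 4.60-fold (3.54 to 5.94) and 8.21-fold (6.44 to 10.5) above the others. Lpl, lipoprotein lipase, was 3.61-fold higher in LC427 and 7.08-fold in vehicle, and Mmp12 2.57-fold and 4.34-fold, although set D held more Mmp12 than the members in LC427 (796 CPM). Areg, the epidermal growth factor receptor ligand amphiregulin, was 5.45-fold higher in LC427 and 4.09-fold in vehicle. These levels came from a minority of members, with an Areg UMI in 26 LC427 and 24 vehicle cells and a Lpl UMI in 32 and 19. Cxcl3, a ligand of the neutrophil receptor CXCR2, was 3.91-fold higher in LC427 and 6.83-fold in vehicle, in 39 and 38 cells. Ccl17, a ligand of CCR4 on T cells, was 3.53-fold and 5.17-fold higher, in 42 and 26 cells. Il1r2, the decoy receptor of interleukin 1, was 2.86-fold and 4.06-fold higher, and Slpi, a protease inhibitor, 2.60-fold and 3.77-fold.

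More evenly spread were the lectin receptors and the ectoenzyme of this group. Clec4n, which encodes the fungal receptor dectin-2, had 385 CPM in LC427 and 716 CPM in vehicle members, with a UMI in 183 and 161 of the cells and folds of 2.36 and 3.07 over the other macrophages. Nt5e, CD73, which makes adenosine from AMP, was 2.67-fold higher in LC427 and 2.44-fold in vehicle. Mgl2, a galactose-type lectin, was 2.67-fold and 2.34-fold higher, and the lipoprotein receptor gene Lsr 2.33-fold and 3.21-fold. Mgl2 was not particular to members. After thinning, 6.10% of LC427 and 13.4% of vehicle members kept a Mgl2 UMI, against 6.45% and 17.7% of set A cells.

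On the lower side, Ccl8, a chemokine gene of the monocyte chemoattractant family, was at 42.5 CPM in LC427 and 81.9 CPM in vehicle members, 0.168 and 0.0406 of the other macrophages. The related Ccl12 stood at 0.294 of the others in LC427 and 0.0852 in vehicle, and Ccl7 at 0.273 and 0.195. Selenop, a secreted selenium carrier, stood at 0.198 and 0.154, Ms4a7 at 0.145 and 0.218, the scavenger receptor Stab1 at 0.313 and 0.287 and F13a1, a transglutaminase subunit, at 0.254 and 0.235. Set A held the highest Ccl8, 1315 CPM in LC427 and 9925 CPM in vehicle, so its weight in the comparison differs between libraries.

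**Figure D2:**
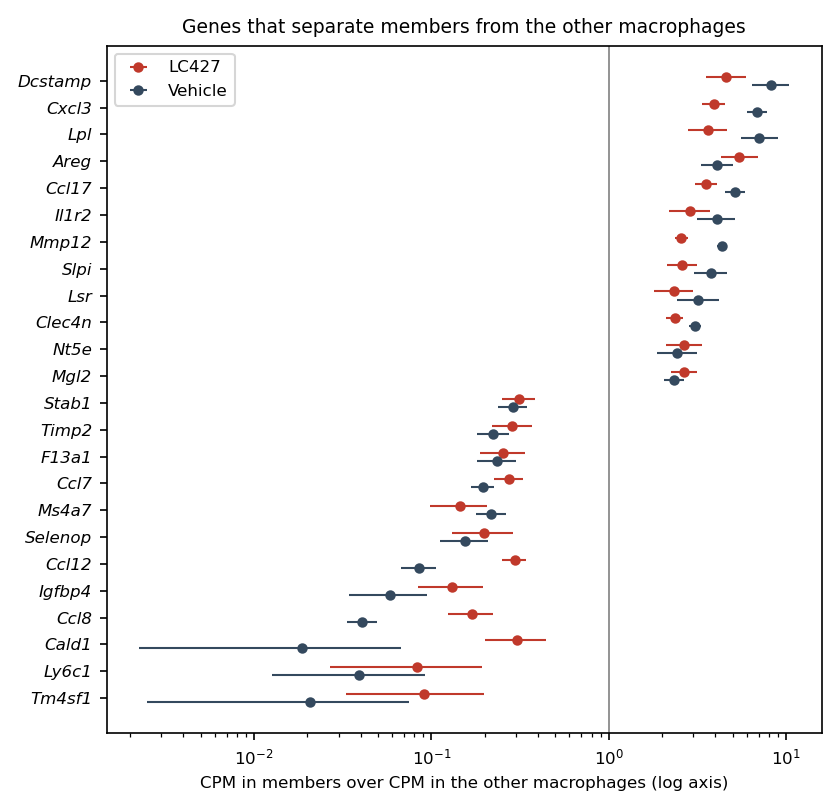
CPM in members over CPM in the macrophages of sets A, C, D and E (log axis) for the 12 genes furthest up and the 12 furthest down outside the rule, in LC427 (red) and Vehicle (dark blue), with 95% counting intervals. Dcstamp (4.60 and 8.21), Areg, Cxcl3 and Lpl lead the higher side, and Ly6c1, Tm4sf1, Igfbp4 and Ccl8 stand below 0.2 of the others in both libraries.

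Several gene groups leaned 1 way against the other macrophages, rule genes left out. Of 22 tested genes around TREM1 and CLEC5A signalling, 6 were higher in both libraries and 0 lower. Malt1, the protease of the CARD9 pathway, was 1.95-fold higher in LC427 and 3.15-fold in vehicle, Card9 1.78-fold and 1.52-fold, and the TYROBP-coupled Trem3 and Sirpb1c, an activating member of the SIRP family, 2.00-fold and 2.61-fold and 1.62-fold and 2.29-fold. Tyrobp itself was near even, at 1.30 and 1.15. Of 10 MHC class II genes 5 were higher and 0 lower, with H2-Aa at 1.54 and 1.83 and H2-Ab1 at 1.55 and 1.80. Set C, at 4713 and 4787 CPM of H2-Ab1, exceeded the members' 3996 CPM in LC427 and 3439 CPM in vehicle.

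The inflammatory list split, with 8 of 27 higher and 6 lower. Il1a was 2.65-fold and 3.35-fold higher, Il1b 1.66-fold and 2.60-fold and Cxcl2, a neutrophil chemoattractant, 1.92-fold and 1.97-fold, whereas Ccl2, Ccl5, Ccl7, Ccl12 and others were lower. Of 21 chemokine and growth factor receptors 4 were higher, among them Ccr2, at 1.65 and 2.60, and the GM-CSF receptor chain Csf2ra, at 1.52 and 1.76. Set C, at 497 and 456 CPM of Ccr2, exceeded the members' 433 CPM in LC427 and 390 CPM in vehicle. Of 17 checkpoint ligands and receptors 3 were higher and 0 lower: Cd80, the ligand of CD28 and CTLA4, at 2.06 and 2.73, Pdcd1lg2 (PD-L2) at 1.98 and 1.80, and the inhibitory receptor gene Cd200r1 at 2.27 and 1.96. In the coagulation list 4 of 22 were higher, with F7, the partner of factor X in the initiation of clotting, at 1.97 and 2.45 and the urokinase receptor Plaur at 1.52 and 2.16, and 3 lower. F7 was at 37.3 CPM in LC427 and 73.5 CPM in vehicle members, so both clotting factors were transcribed in them, while F3, tissue factor, had fewer than 20 UMIs over the members of both libraries.

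Type I interferon genes and cell cycle genes stood lower in members. Of 25 tested type I interferon genes 0 were higher and 11 lower in both libraries, and of 20 cell cycle genes 0 and 11. Top2a stood at 0.402 of the other macrophages in LC427 and 0.656 in vehicle, and the interferon-induced Ifi207 at 0.519 and 0.520. Set C was low in Mki67 as well: after thinning, 1.89% of its LC427 and 0% of its vehicle cells kept a UMI. Members kept one in 1.36% and 3.98%. In sets A, D and E the shares were 6.45%, 5.80% and 6.31% in LC427 and 2.96%, 4.55% and 6.29% in vehicle. The interferon gamma list had 0 higher and 5 lower of 21. Few hypoxia and glycolysis genes passed 1.5-fold, with 2 higher (Vegfa at 1.66 and 1.51 and Ankrd37 at 1.51 and 2.06) and 0 lower of 28. The list median still stood above that of all genes, at log2 0.19 against -0.14 in LC427 and 0.31 against -0.18 in vehicle. Among transcription factors Bhlhe40, at 1.92 and 2.14, was the 1 higher of 37, with 4 lower.

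Members made up 6.24% of macrophage-gated cells in LC427 (exact 95% interval 5.57 to 6.97) and 5.17% in vehicle (4.49 to 5.91), a ratio of 1.21 (1.01 to 1.44). Of all cells they were 4.66% in LC427 and 3.83% in vehicle. This ratio lay between that of set C, at 2.18, and those of set E, 0.856, set D, 0.645, and set A, 0.251. It turned with the stringency of the gate: with at least 3 set B genes the share was 3.21% in LC427 and 3.75% in vehicle, a ratio of 0.857. After thinning every cell to 1000 UMIs before the gate, 109 LC427 and 61 vehicle members remained and the ratio was 1.48. Within cells of 1000 to 2000 UMIs the share was 3.68% in LC427 and 1.32% in vehicle, and within 2000 to 3000 UMIs 6.85% and 4.08%. At 5000 to 10000 UMIs it was 9.91% and 6.76%, and at 10000 or more, where LC427 had 11 members, 9.09% and 12.4%. The share was thus higher in LC427 in 4 of 5 depth classes, and treatment and library cannot be told apart.

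**Figure D3:**
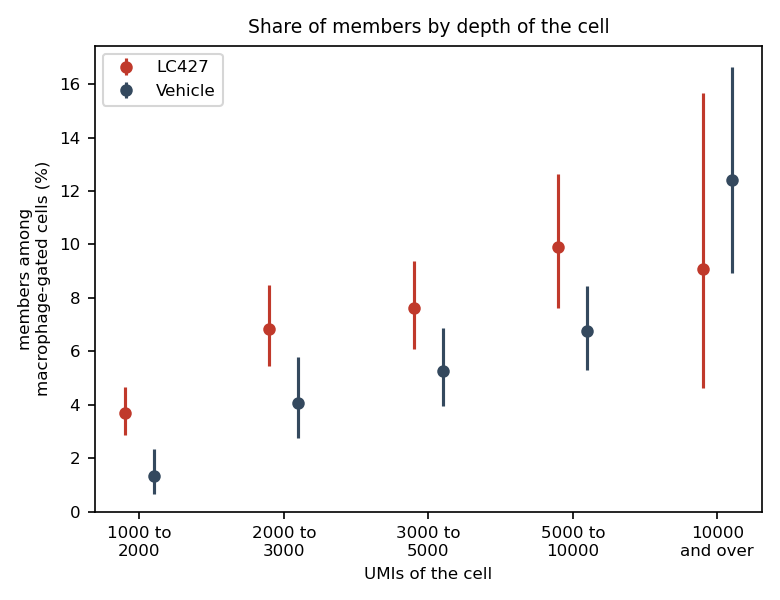
Percent of macrophage-gated cells that were members, in 5 classes of UMIs per cell, in LC427 (red) and Vehicle (dark blue), with exact 95% binomial intervals. The share is higher in LC427 in every class below 10000 UMIs (3.68% against 1.32% in the lowest) and lower above it (9.09% against 12.4%).

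Between the treatments, 1293 of 7558 genes with at least 20 UMIs in members (17.1%) were at least 1.5-fold higher in LC427 and 640 (8.47%) at least 1.5-fold lower. These shares are the background for every count below. Centred on the median over all genes the counts were 948 higher and 914 lower, and after thinning to 1000 UMIs 221 and 181. Centring balances the counts by its construction. That median was log2 0.12. In comparison, 9.63% and 7.71% of genes passed in the other macrophages, and 14% and 7.38% in T-gated cells. The other macrophages are sets A, C, D and E pooled, and their mix differed between the libraries. Set C had 793 LC427 and 299 vehicle cells, and set A 62 and 203. In a pooled ratio this mix and the levels within a set cannot be told apart. In LC427 members the type I interferon list stood higher, and the hypoxia, cell cycle, inflammatory and tumour-associated macrophage lists stood lower.

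Among the labelled markers, Arg1 was at 1657 CPM in LC427 and 3295 CPM in vehicle members, a ratio of 0.503 (0.476 to 0.531). In the other macrophages the ratio was 0.598, so the lower level was not confined to members. Mmp12 was at 582 CPM in LC427 and 1208 CPM in vehicle, a ratio of 0.481 (0.439 to 0.527), or 0.536 without the richest cell of each library, and of 0.813 in the other macrophages. With cells admitted in which set B tied with another set, its log2 ratio was -0.47, against -1.05, which ends the call at 1.5-fold. Trem1 had a ratio of 1.17 (0.962 to 1.41), F10 of 1.08 (0.914 to 1.28) and Cdh1 of 0.918 (0.737 to 1.14), all intervals that hold 1. With cells thinned before the gate their log2 ratios were -0.29, -0.40 and -0.89, each outside its interval. Clec5a had a ratio of 1.45 (1.21 to 1.74) and Dpep2 of 1.83 (1.47 to 2.29), genes that the rule constrains.

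Of 20 tested type I interferon genes 11 were higher in LC427 members and 0 lower, with a list median of log2 0.87, against 0.37 in the other macrophages. Ifi207, a member of the interferon-induced p200 family, was at 129 CPM in LC427 and 43.6 CPM in vehicle, a ratio of 2.94 (2.16 to 4.07), with 2.95 in the other macrophages. Slfn5, a growth regulator of the Schlafen family, was at 56.4 CPM and 16.1 CPM, a ratio of 3.51 (2.12 to 6.05), with 1.96 in the others. Ifi204 had a ratio of 1.98 and Ifi205 of 2.53. Each of these 4 was spread over 34 or more LC427 members, so no single cell sets it. The classical antiviral genes rested on few cells. Ifit1, which binds viral RNA caps, had a ratio of 4.28 (2.01 to 10.2) from 11 LC427 and 5 vehicle cells, and Rsad2, viperin, a ratio of 2.17 from 6 and 4 cells. Isg15, a ubiquitin-like modifier, was even at 102 CPM in LC427 and 100.3 CPM in vehicle, a ratio of 1.02. The regulator Irf7 had a ratio of 1.26, or 1.89 without the richest cell of each library, and Ifit3 one of 1.06, or 11.3 without it. Thinned to 1000 UMIs, members carried on average 1.10 UMIs of the list in LC427 and 0.562 in vehicle, and 49.5% and 65.7% carried none. The other macrophages averaged 2.03 and 1.38 UMIs, so the members stayed below them in both libraries.

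The promoters of Ifit1 and Rsad2 are shown because they carry the core of the interferon-stimulated response element on either strand, GAAA and GAAA with 2 free bases between them, set in capitals. They run from 250 bases before to 50 after the start site (RefSeq, GRCm38.p6), Ifit1 at chr19:34640639-34640938 on the plus strand and Rsad2 at chr12:26456403-26456702 on the minus strand.
Ifit1: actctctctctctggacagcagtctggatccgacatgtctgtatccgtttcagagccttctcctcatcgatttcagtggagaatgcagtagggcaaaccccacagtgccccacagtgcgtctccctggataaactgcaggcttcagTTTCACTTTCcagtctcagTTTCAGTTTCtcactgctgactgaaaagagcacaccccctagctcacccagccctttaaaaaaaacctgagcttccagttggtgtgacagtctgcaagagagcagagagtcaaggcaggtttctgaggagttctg
Rsad2: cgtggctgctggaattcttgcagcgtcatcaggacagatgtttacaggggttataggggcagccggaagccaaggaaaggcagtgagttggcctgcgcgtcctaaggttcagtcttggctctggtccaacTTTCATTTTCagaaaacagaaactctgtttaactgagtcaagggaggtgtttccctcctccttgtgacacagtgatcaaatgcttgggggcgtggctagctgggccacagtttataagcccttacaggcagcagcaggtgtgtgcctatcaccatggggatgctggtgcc
The core was found in 13 of 23 list genes with a promoter in the table, and in 7 of 9 of those called higher in LC427. It is in 3.99% of all 27025 genes with a promoter. The list was made of genes known for the interferon response, so its share is no measure of the difference between the libraries. A match describes the letters only and does not show that a factor binds there.

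Interferon gamma genes were closer to background, with 6 of 22 higher, 1 lower and a median of log2 0.29. Cxcl9, a T cell chemoattractant, was at 681 CPM in LC427 and 441 CPM in vehicle members, a ratio of 1.54 (1.38 to 1.72), and Gbp2 had a ratio of 1.51. Gbp5, a guanylate-binding protein that promotes inflammasome assembly, had a ratio of 4.43 (2.25 to 9.53), with 1.66 in the other macrophages. The 1 lower gene was Nos2, a rule gene, at 30.4 CPM in LC427 and 64.3 CPM in vehicle.

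Of 29 hypoxia and glycolysis genes 0 were higher in LC427 members and 10 lower, with a median of log2 -0.51, against -0.25 in the other macrophages. Egln3, an oxygen-sensing prolyl hydroxylase that hypoxia induces, was at 8.68 CPM in LC427 and 54.4 CPM in vehicle, a ratio of 0.160 (0.0734 to 0.311), with 0.356 in the others. Vegfa, the vessel growth factor, was at 228 CPM in LC427 and 414 CPM in vehicle, a ratio of 0.549 (0.472 to 0.638), with 0.498 in the others. Gapdh was at 1052 CPM and 2689 CPM, a ratio of 0.391 (0.366 to 0.418), with 0.493 in the others and 0.446 in T-gated cells. Gapdh was therefore low in LC427 in unrelated cells too. Hilpda, an inhibitor of fat breakdown in lipid droplets and a gene of set D, had a ratio of 0.374, Ankrd37 of 0.443, Ero1l of 0.519 and Bnip3, a mitophagy receptor, of 0.559. Hif1a, the oxygen-regulated transcription factor, was even at 1.06, as was the pyruvate kinase gene Pkm at 1.10. Per thinned cell the median was 8 UMIs of the list in LC427 and 11 in vehicle members, and 7 and 8 in the other macrophages.

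The promoters of Egln3 and Hilpda are shown for the hypoxia response element core, ACGTG on either strand, in capitals. Egln3 is at chr12:54203825-54204124 on the minus strand and the start site of Hilpda that has the core at chr6:29272376-29272675 on the plus strand.
Egln3: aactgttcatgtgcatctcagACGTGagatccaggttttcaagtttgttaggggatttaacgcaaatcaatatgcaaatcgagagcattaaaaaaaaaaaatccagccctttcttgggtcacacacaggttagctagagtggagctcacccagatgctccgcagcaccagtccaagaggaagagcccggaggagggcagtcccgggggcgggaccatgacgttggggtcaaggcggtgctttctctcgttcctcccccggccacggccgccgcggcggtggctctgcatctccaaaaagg
Hilpda: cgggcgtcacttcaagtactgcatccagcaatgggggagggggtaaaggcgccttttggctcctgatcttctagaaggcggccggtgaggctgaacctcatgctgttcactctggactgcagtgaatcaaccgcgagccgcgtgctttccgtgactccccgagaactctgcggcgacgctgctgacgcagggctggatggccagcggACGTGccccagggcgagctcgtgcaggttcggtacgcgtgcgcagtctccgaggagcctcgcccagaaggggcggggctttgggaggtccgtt
The core was found in 20 of 28 list genes with a promoter, and in 8 of 9 of those called lower in LC427, against 21.8% of all genes. The list was made of genes known for hypoxia and glycolysis, so its share is no measure of the difference between the libraries. A match describes the letters only, and a link to that difference was not tested.

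In the list of tumour-associated macrophage genes 9 of 19 were lower in LC427 members and 2 higher. Its median was log2 -0.37, and -0.67 in the other macrophages. Ccl24, an eosinophil chemoattractant induced by interleukin 4, was at 1.74 CPM in LC427 and 123 CPM in vehicle, a ratio of 0.0142 (0.0017 to 0.052), from 2 LC427 and 36 vehicle cells. In the other macrophages its ratio was 0.0889. In members its log2 ratio of -6.14 became -1.84 with cells thinned before the gate and -3.79 with ties admitted. Mrc1, the mannose receptor CD206, was at 158 CPM in LC427 and 344 CPM in vehicle, a ratio of 0.460 (0.385 to 0.547), and Mgl2 had a ratio of 0.659. Chil3, a chitinase-like protein, was at 88.6 CPM and 402 CPM, a ratio of 0.220 (0.176 to 0.273), with 0.627 in the others pooled. By set it was also lower in LC427 in set D (20.9 and 141 CPM), set E (28.3 and 108 CPM) and set A (4.46 and 17.8 CPM). Only set C was higher, at 252 CPM in LC427 and 206 CPM in vehicle. Ccl22, a CCR4 ligand, was at 26.9 CPM and 156 CPM but came from 8 and 9 cells, with a ratio of 1.01 in the others pooled. Those sets differed, at 112 and 48.0 CPM in set D but 25.8 and 77.3 CPM in set C. Sets E (9.93 and 18.9 CPM) and A (0 and 18.9 CPM) were lower in LC427 too. The higher 2 were the interleukin 4 receptor chain Il4ra, at 142 CPM in LC427 and 75.8 CPM in vehicle, a ratio of 1.88 (1.45 to 2.44), and Retnla, whose 460 LC427 UMIs came to 428 from 1 cell. Spp1 and Fn1, fibronectin, were among the most abundant genes of the list and near even, at ratios of 0.879 and 0.815.

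In arginine metabolism the difference lay mainly at Arg1 and its transporter. Slc7a2, the inducible arginine transporter, was at 209 CPM in LC427 and 461 CPM in vehicle members, a ratio of 0.454 (0.389 to 0.528), with 0.799 in the other macrophages. Of 19 genes 4 were lower, including the rule genes Nos2 and Gatm, and 1 higher, the spermidine synthase gene Srm, at a ratio of 2.12 (1.35 to 3.40). Odc1, Sms and Oaz1 of the polyamine pathway had ratios of 0.923, 0.938 and 0.882.

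The inflammatory list had 7 of 25 lower in LC427 and 2 higher, with a median of log2 -0.41, against -0.34 in the other macrophages. Il1b was at 1465 CPM in LC427 and 2345 CPM in vehicle members, a ratio of 0.625 (0.588 to 0.663), with 0.976 in the other macrophages pooled. Cxcl2 was at 3040.5 CPM and 4763 CPM, a ratio of 0.638 (0.612 to 0.665), with 0.654 in the others. Il1a had a ratio of 0.428, the chemokine gene Ccl4 of 0.432 and the inflammasome sensor Nlrp3 of 0.642. Ptgs2, the inducible prostaglandin synthase of the leukotriene and prostanoid list, was at 250 CPM in LC427 and 436 CPM in vehicle, a ratio of 0.573 (0.496 to 0.661). The exception was Ccl12, at 152 CPM in LC427 and 62.8 CPM in vehicle members, a ratio of 2.42 (1.85 to 3.19). It had 0.701 in the other macrophages pooled, whose mix of sets differed between the libraries. Csf1 was the other higher gene.

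The receptor pathway itself was near even. Of 22 TREM1 and CLEC5A signalling genes 2 were higher in LC427 members and 3 lower, with a median of log2 -0.01. Tyrobp was at 2645 CPM in LC427 and 2913 CPM in vehicle, a ratio of 0.908. Trem2, a lipid-sensing relative, had a ratio of 0.638, Malt1 of 0.629 and Cd300ld of 0.596, whereas the inhibitory adaptor Dok3 had 1.68 and the lipid phosphatase Inpp5d (SHIP1) 1.55. In the coagulation list F7 had a ratio of 0.508 (0.346 to 0.735) and Procr and Thbd were lower on few UMIs. In the leukotriene list Alox5ap, the partner of 5-lipoxygenase, was even at 0.893 and Dpep2 was the gene with the most UMIs among the 4 higher.

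MHC class II was even in level: 2 of 9 genes were higher and 0 lower, with H2-Ab1 at a ratio of 1.16 and the invariant chain Cd74 at 0.746. The 2 were Ciita, the master regulator of the class, at 60.8 CPM in LC427 and 25.3 CPM in vehicle, a ratio of 2.41 (1.57 to 3.76), with 1.89 in the other macrophages, and H2-Oa. Of 13 checkpoint ligands and receptors 1 was higher, the receptor gene Havcr2 (TIM-3) at 1.88, and 3 lower, with Pdcd1lg2 at 0.446 (0.266 to 0.726). Cd274, PD-L1, stood at 0.836 (0.626 to 1.11) and Cd80 at 0.783 (0.532 to 1.14), intervals that hold 1.

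Of 19 cell cycle genes 9 were lower in LC427 members and 0 higher, at a median of log2 -0.49, against 0.07 in the other macrophages pooled. Mki67 was at 36.5 CPM in LC427 and 70.4 CPM in vehicle, a ratio of 0.518 (0.350 to 0.753), with a UMI in 27 cells each. Top2a had a ratio of 0.660 and Stmn1 of 0.578, with 1.08 and 0.939 in the others. The share of members with any cell cycle UMI at equal depth went the other way, since 47.8% of LC427 and 54.7% of vehicle members carried none, and the mean was 1.20 and 1.24 UMIs per cell. The lower level in summed UMIs was thus not seen in the list total per thinned cell. For Mki67 it was, as 1.36% of LC427 and 3.98% of vehicle members kept a UMI, in 4 and 8 cells.

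The remaining lists were near even in the median. Lipid-associated genes had 6 of 17 lower and 1 higher, with Fabp5, a rule gene, at 0.258, Lgals3 (galectin 3) at 1447 CPM in LC427 and 2532 CPM in vehicle, and Cd63 at 0.520. Monocyte genes had 4 of 17 higher and 3 lower, complement 3 of 12 higher and 1 lower, with C3 at 0.466 and Cfb at 2.21. Chemokine and growth factor receptors had 2 of 23 higher and 2 lower, transcription factors 1 of 34 higher and 2 lower, with Egr2 at 0.435 (0.305 to 0.612) and Bhlhe40 at 0.609. Matrix proteases and inhibitors had 3 of 17 higher and 1 lower. The barcode of 17987 UMIs held 21 of the 22 Timp3 UMIs behind 1 of these 3, and without the richest cell of each gene the list median was log2 -0.13, against 0.08. Fusion genes had 0 of 12 higher and 1 lower. Dcstamp itself had a ratio of 0.833 (0.634 to 1.09), against 1.49 in the others.

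**Figure D4:**
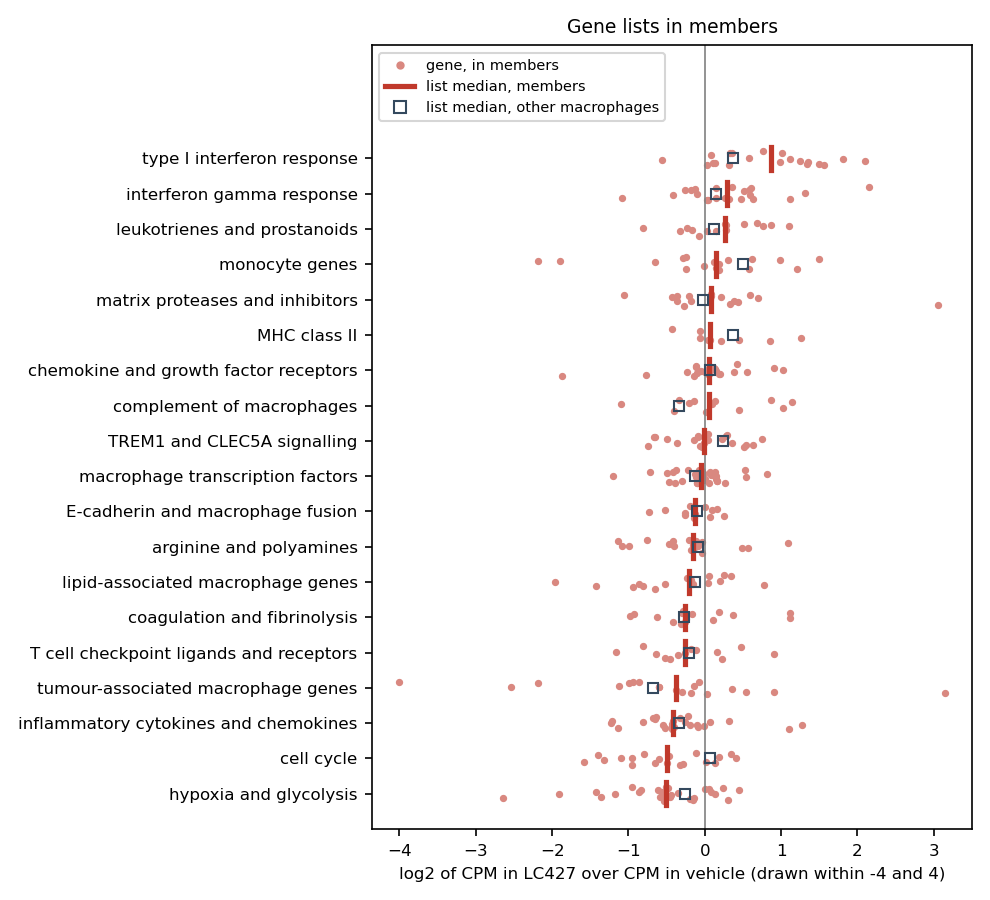
Log2 of CPM in LC427 over CPM in vehicle in members for each tested gene of 19 lists (points, drawn within -4 and 4), with the list median in members (red bar) and in the other macrophages (open square). The type I interferon list stands highest (0.87 against 0.37 in the others) and hypoxia and glycolysis lowest (-0.51 against -0.25). The cell cycle list is lower in members (-0.49) and stands at 0.07 in the others pooled.

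The genes furthest apart in members were named by the counting bound nearest to 1 among those at 50 CPM or more. Dennd5b, a membrane trafficking factor, was at 59.9 CPM in LC427 and 10.7 CPM in vehicle, a ratio of 5.59 (3.12 to 10.8), with 3.35 in the other macrophages. Klf13, a zinc finger factor, was at 241 CPM and 106 CPM, a ratio of 2.27 (1.84 to 2.80), with 1.78 in the others. Spint1, a protease inhibitor, had a ratio of 2.41 (1.86 to 3.13), Sla, an adaptor that damps receptor signals, of 2.85, Jaml, an adhesion molecule, of 2.72 and Rnf169 of 3.91, all likewise above 1.5 in the others. Hhex, a homeobox factor, was at 51.2 CPM in LC427 and 16.8 CPM in vehicle, a ratio of 3.04 (1.84 to 5.21), with 1.13 in the others pooled. With cells thinned to 1000 UMIs before the gate its log2 ratio was 0.16, which ends the call, and 0.74 with ties admitted, against 1.60. Dennd5b kept a log2 ratio of 1.38 after thinning, against 2.48. Apart from Hhex, these genes were thus higher in LC427 in the other macrophages pooled as well. Tnc, Sparc, Col1a1 and Cxcl14 ranked among the 12 highest through the barcode of 17987 UMIs.

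On the lower side Inhba, the activin A subunit, was at 72.1 CPM in LC427 and 217 CPM in vehicle members, a ratio of 0.331 (0.256 to 0.425), with 0.964 in the others pooled. Hbegf, a heparin-binding growth factor, was at 16.5 CPM and 92.6 CPM, a ratio of 0.178 (0.104 to 0.290), with 0.286 in the others. With cells thinned before the gate the log2 ratio of Hbegf was -0.84, against -2.49, and that of Inhba -0.74, against -1.59. Rgcc had a ratio of 0.350 and Mxi1, an antagonist of MYC, of 0.373. The mitochondrial transcript mt-Atp8 had a ratio of 0.322 in members, 0.339 in the other macrophages and 0.258 in T-gated cells, so it was lower in LC427 in unrelated cells by a like factor.

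**Figure D5:**
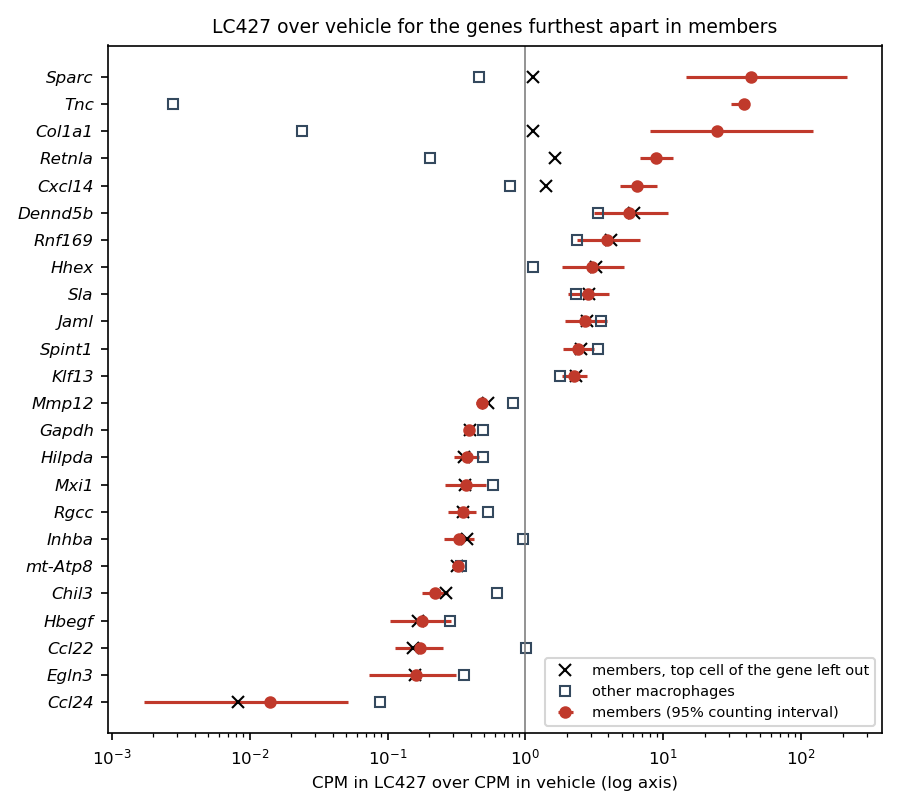
CPM in LC427 over CPM in vehicle (log axis) for the 12 genes furthest up and the 12 furthest down in members, with 95% counting intervals (red), the ratio without the richest cell of the gene in each library (cross) and the ratio in the other macrophages (open square). Sparc (43.5, or 1.13 without the cell) and Col1a1 (24.6, or 1.13) collapse without 1 cell, while Dennd5b, Klf13, Egln3 (0.160) and Gapdh (0.391) do not.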

How the data were processed

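Single-cell RNA was measured in 2 droplet libraries, 1 from LC427 and 1 from vehicle treated mice, grouped by the treatment in the labels. Per library, the authors deposited raw counts of UMIs for 32285 genes in every barcode, empty droplets included. Cell Ranger 3.0.1, Seurat 3 and a GRCm38 build stand in the submitters' processing notes, but Cell Ranger 4 stands in the matrices per the file headers, and which of them made the counts is not settled. Cluster tables by the authors hold, per gene, a deposited mean signal (counts scaled by the authors) in each cluster and its log2 fold change; a few of these means are quoted.

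Cells, macrophages and members were called from the counts as the report gives. UMIs were summed over members, levels are CPM of that sum, and a group at 0 stands at 3 counts. Ratios are LC427 over vehicle, or members over the macrophages of sets A, C, D and E, with exact conditional binomial 95% intervals, and shares have exact Clopper-Pearson intervals. UMIs of 1 cell are not independent, so these intervals are too narrow for differences between mice. A gene counts as higher or lower at 1.5-fold with at least 20 UMIs over both sides. The calculation of ratios and calls was checked on simulated UMI sums with known changes. Those sums had counting error only and no variation between cells, so they do not show how often calls in these data are wrong. T-gated cells carry at least 2 of 5 T cell receptor complex genes, and empty droplets 10 to 100 UMIs. Doublets were scored with Scrublet (scanpy 1.11.5), whose automatic cut marked 0 cells in either library and so did not work. No doublet was removed, and leaving out the highest scores was an alternative. The other alternatives changed the gate, depth, filter, scaling, weight of cells and free RNA.

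The members, gene lists and tests were chosen with earlier results of these data known, so nothing here is independent support for them. The text names the rule's set B genes and given markers, up to 12 genes each way per comparison by the bound nearest to 1 or the smaller fold, at 50 CPM or more, and from each list up to 4 genes past 1.5-fold and the 4 with most UMIs. Other list genes it names were chosen for their role, after their values were seen. Mx1 and Cxcl11 are not among the symbols of the files. Promoters come from RefSeq tables of GRCm38.p6 and gene spans from GENCODE vM21. Python 3.11.15, numpy 2.4.6, scipy 1.17.1, pandas 2.3.3 and matplotlib 3.10.9 were used.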

Additional observations from a re-analysis of the deposited data

Results flagged for a closer look

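For 5 genes the ratio of LC427 over vehicle was at least 1.5-fold up in members and at least 1.5-fold down in the other macrophages. The difference was not tested, and the other macrophages were pooled over sets whose mix differed between the libraries. Tnc, a matrix protein, had a ratio of at least 38.6 in members, with no vehicle UMI, and 0.00279 in the others. Sparc, a collagen-binding protein, had 43.5 in members and 0.462 in the others, and Col1a1, a collagen chain, 24.6 and 0.0239. Timp3, a protease inhibitor, had at least 8.32 in members, with no vehicle UMI, and 0.645 in the others. A single LC427 barcode of 17987 UMIs held 102 of the 102 Tnc UMIs, 113 of 115 of Sparc, 63 of 65 of Col1a1 and 21 of 22 of Timp3. Without the richest cell of each library Sparc and Col1a1 both had a ratio of 1.13. Retnla, a secreted protein of alternative activation, had 8.84 in members and 0.203 in the others, and 428 of its 460 LC427 UMIs came from 1 other member, without which the ratio was 1.65.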

How the results depend on the processing

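No paired analysis was possible because each group has 1 library, and for the same reason no replicate could be left out. The ratio of member shares, 1.21 of macrophages and 1.22 of all cells, became 0.857 and 0.863 with at least 3 set B genes, and 1.48 and 1.48 with cells thinned to 1000 UMIs. Under the other alternatives it lay between 1.08 and 1.26. The counts of genes higher and lower in LC427, 1293 and 640, became 221 and 181 after thinning, 661 and 296 at 50 UMIs or more, 3672 and 2499 with no filter and 394 and 212 at 2-fold. The counts higher and lower in members than in other macrophages, 236 and 1075, became 651 and 318 after thinning, 1435 and 2053 with no filter and 77 and 469 at 2-fold, and the first 414 with ratios centred on the median of all genes. Fewer UMIs or fewer genes enter under thinning and the filters; the cause was not tested otherwise. In members the log2 ratio of Sparc was 5.44 and became -0.32 without cells that hold genes of other types, that of Retnla was 3.14 and became -0.59 there and -2.36 with at least 3 set B genes, and that of Cxcl14 was 2.70 and became -0.25 after thinning. Of the other values by gene or list, 705 moved by less than their interval and 55 by more. The median of the type I interferon list stayed between 0.54 and 1.26, of hypoxia between -0.63 and -0.41 and of cell cycle between -0.73 and -0.37. Leaving out each gene's richest cell per library, chosen after seeing the data, kept 1256 of the 1293 and 601 of the 640 calls.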

Other observations

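The macrophages assigned to no set, 1728 in LC427 and 1301 in vehicle, were not part of the group the members were set against. Among them were the cells in which set B tied with another set, 250 in LC427 and 215 in vehicle, beside 295 and 201 members. Their Adgre1 level, 38.8 CPM in LC427 and 72.4 CPM in vehicle, stood above that of the members, at 28.7 and 30.6 CPM. Nos2, a gene of set C that the rule holds down, stood at 15.4, 44.9, 21.6 and 46.6 CPM in LC427 members with 2 to 5 set B genes. In vehicle members it stood at 18.5, 32.9, 125 and 67.3 CPM over the same steps. The libraries were furthest apart at 4 genes, in 40 LC427 and 49 vehicle members, and at 3 genes LC427 was the higher.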
